A study of Mus musculus with 22 samples.

Results

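The 10 mitotic kinesins are motor proteins that move along microtubules or take them apart while a cell divides: Kif11, Kif15, Kif4, Kif22, Kif2c, Kif18a, Kif18b, Kif20a, Kif20b and Kif14. They were found by their gene symbols in both tables of read counts per gene, and make up 10 of the 48709 genes listed. The counts come from polyA RNA of ventricular heart tissue of mouse embryos at E13.5, in 18 libraries that form 6 groups of 3. Experiment 1 held LIN9 wt and LIN9 KO ventricles. Experiment 2 held LIN9 wt, LIN9 KO, Sav1 KO and LIN9 KO Sav1 KO (double knockout) ventricles. All embryos carried Nkx2.5-Cre, which is active in early cardiac precursors: the LIN9 KO groups were Lin9 fl/fl, and the LIN9 wt groups, called wild-type in the labels, were Lin9 fl/+ per the paper. In the Sav1 KO groups Sav1 was fl/fl with the same Cre, and in the other groups it was wild-type. Total counts per library were 9485599 to 9615274 in experiment 1 and 2770741 to 2999877 in experiment 2. The labels do not say whether each library is a separate embryo or a pool. The paper speaks of RNA taken in triplicates, and for the LIN9 comparison of 2 biological replicates of 3 samples each, which may mean that each experiment is a single biological replicate. The n, SD, SE and p-values below are thus over libraries and measure the spread between these samples.

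A dividing cell builds a spindle of microtubules, lines its chromosomes up on it, pulls them apart and pinches in the middle, and each of these steps uses its own kinesins. LIN9 is a subunit of MuvB, a protein complex that joins B-MYB (gene Mybl2) and FOXM1 on the promoters of genes used in G2 and mitosis, and that holds such genes silent in resting cells when joined by other partners. Sav1 is a scaffold of the Hippo kinases, which restrain the transcriptional coactivator YAP, and fetal heart muscle grows by cell division.

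MuvB touches DNA through its subunit LIN54, at the so-called CHR element with the core TTTGAA, and promoters of mitotic genes often pair it with CCAAT boxes, so the promoters of the members were searched for both. RefSeq promoters (GRCm38.p6, 250 bases before to 50 after the start) were found for 9 of the 10 members, all but Kif20a. TTTGAA or its reverse complement TTCAAA occurred in 8 of these 9, all but Kif18a, and in 18.1% of 27025 promoters. Within 50 bases on either side of the start it occurred in 6 of the 9, against 4.92% of all promoters. CCAAT or its reverse complement ATTGG occurred in 5 of the 9 (37.9% of all) and within 50 bases of the start in 3 (13.9%). The variant TTCGAA was in none (0 of 9; 1.57% of all). The 6 promoters with TTTGAA near the start are shown from 70 bases before to 30 after it on mm10, 5′ to 3′, with matches to TTTGAA or CCAAT on either strand in capitals, so that the place of the element can be compared:
Kif11, chr19:37376312-37376411, plus strand: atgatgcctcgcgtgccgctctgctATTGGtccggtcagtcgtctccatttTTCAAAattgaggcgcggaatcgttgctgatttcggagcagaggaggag
Kif15, chr9:122951011-122951110, plus strand: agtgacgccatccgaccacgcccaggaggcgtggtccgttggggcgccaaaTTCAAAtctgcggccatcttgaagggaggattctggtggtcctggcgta
Kif4, chrX:100625995-100626094, plus strand: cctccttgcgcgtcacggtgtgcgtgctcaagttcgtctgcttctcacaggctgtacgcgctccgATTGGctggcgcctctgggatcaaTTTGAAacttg
Kif22, chr7:127042391-127042490, minus strand: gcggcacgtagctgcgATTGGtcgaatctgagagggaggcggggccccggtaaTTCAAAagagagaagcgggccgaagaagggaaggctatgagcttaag
Kif18b, chr11:102925095-102925194, minus strand: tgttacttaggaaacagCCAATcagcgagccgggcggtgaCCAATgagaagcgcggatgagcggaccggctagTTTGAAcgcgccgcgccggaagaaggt
Kif20b, chr19:34922288-34922387, plus strand: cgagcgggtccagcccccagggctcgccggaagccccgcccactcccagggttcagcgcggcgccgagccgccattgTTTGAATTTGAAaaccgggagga
The element began 19 bases before the start in Kif11 and in Kif15, 17 before it in Kif22, and at bases 20, 4 and 8 counted from the start in Kif4, Kif18b and Kif20b. Kif20b held the element once more, at base 14, directly behind the first, and Kif15 and Kif22 held a second match further away, 234 and 215 bases before the start. In Kif2c and Kif14 the match lay 103 and 228 bases before the RefSeq start, which lies 3867 and 1505 bases from the gene start in the GENCODE annotation. For Kif4 this distance is 328 bases. A match of letters is a description of the sequence and shows no binding.

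The tissue was checked by marker genes. Cardiomyocyte markers were high: Myh7, the fetal ventricular myosin heavy chain, was their most abundant gene. Actc1, the cardiac actin gene, had 0 counts in all 18 libraries, as had the erythroid marker Alas2. The settings of the counting are not given, so these 0 counts cannot be read as absence of the RNA. Markers of several cell types differed with LIN9, as given with their levels after the first comparison.

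The targeted genes came first. Only exon 7 of Lin9 and exon 3 of Sav1 are floxed, and counts cover the whole gene in all cells of the ventricle. Lin9 stood at 29.8, 21.4 and 25.6 CPM (normalised read count scaled to a common library size) in the LIN9 wt and 21.4, 21.3 and 19.2 CPM in the LIN9 KO libraries of experiment 1, with LIN9 wt replicate 2 and LIN9 KO replicate 1 nearly level. In experiment 2 it was 29.3, 28.1 and 23.2 CPM in LIN9 wt, 13.1, 15.4 and 17.9 in LIN9 KO, 19.2, 31.4 and 25.6 in Sav1 KO and 23.5, 26.1 and 18.5 in double knockout libraries. Lin9 fell in LIN9 KO with wild-type Sav1 (log2 fold change -0.80, SE 0.19, adjusted p 0.0027), and was lower in 3 of 3 libraries. The difference did not pass the test in experiment 1 (-0.31, adjusted p 0.13) or between double knockout and Sav1 KO, whose libraries overlapped (-0.16, adjusted p 0.586). Sav1 was 54.5, 56.2 and 61.9 CPM in LIN9 wt and 43.1, 36.1 and 43.0 in Sav1 KO, 51.9, 49.9 and 47.3 in LIN9 KO and 43.97, 40.5 and 42.3 in double knockout libraries. Each Sav1 knockout library lay below each library of its own controls, with log2 fold changes of -0.50 (adjusted p 0.318) and -0.23 (adjusted p 0.464) that did not pass the test.

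All members but Kif18b were counted in all 18 libraries, and their levels per length of exon kept nearly the same order from group to group. Kif11, which slides microtubules apart to separate the spindle poles, had the highest mean per kb of all its exons, 18.1 to 27.3 CPM per kb over the 6 groups. Kif20a, which brings Aurora B to the middle of the spindle for cytokinesis, came next, with 12.7 to 21.4 CPM per kb. Since 29.3% of the exon length of Kif20a is shared with exons of another gene and 0% of that of Kif11, and reads there may not have been counted, the order of these 2 is not settled by the values. By this measure Kif18a, which steadies the plus ends of kinetochore microtubules, was the lowest of the counted members in every group (1.20 to 2.23 CPM per kb). Kif14, a kinesin of the midbody, was the next lowest (2.48 to 3.13 CPM per kb). All exons together are longer than the longest transcript by unlike amounts: 9832 against 6509 bases in Kif18a, 10358 against 8943 in Kif14 and 11020 against 4858 in Kif15. The order of members with near values, Kif18a and Kif14 included, thus depends on the length used. In the LIN9 wt libraries of experiment 2 the means were 25.4 ± 5.10 CPM per kb (SD, n = 3) for Kif11, 20.6 ± 0.626 for Kif20a, 15.1 ± 2.24 for Kif4, 12.4 ± 0.805 for Kif2c, 8.003 ± 0.150 for Kif22, 6.42 ± 1.61 for Kif15, 6.06 ± 3.55 for Kif20b, 2.99 ± 0.229 for Kif14 and 2.05 ± 0.959 for Kif18a. Of neighbours in this order, the libraries of Kif20a and Kif4, of Kif2c and Kif22 and of Kif14 and Kif18a did not overlap, while those of the other 5 pairs did. Kif20b was the member whose place moved most, from the seventh place in LIN9 wt to the fourth in double knockout libraries (10.4 ± 0.800 CPM per kb).

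Kif18b, a kinesin of the plus ends of astral microtubules (ENSMUSG00000051378, chr11:102905529-102925124), had 0 counts in all 18 libraries. A count of 0 allows up to 3 counts, which is 0.312 to 0.316 CPM in experiment 1 and 1.00 to 1.08 CPM in experiment 2, for counting error only. The whole gene lies within Gm26668, a long noncoding RNA gene on the other strand (chr11:102863337-103075903), which had 60 counts in experiment 1 and 48 in experiment 2. Of the 1164 protein-coding genes that lie wholly within another gene, 1132 (97.3%) had 0 counts in all 18 libraries, against 2937 of the other 20531 (14.3%). The paper names summarizeOverlaps as the counting function, but neither paper nor labels give its overlap mode or strand setting, so the 0 of Kif18b cannot be read as absence of its RNA. None of the other 9 members lies within another gene. The exons of Kif18b themselves were under exons of other genes for 0% of their length. Exons of Kif20a were under Cdc23 on the other strand for 29.3% of their length and those of Kif4 under Pdzd11 for 15.1%, against 2.0% in Kif22 and 0.1% in Kif18a.

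**Figure D1:**
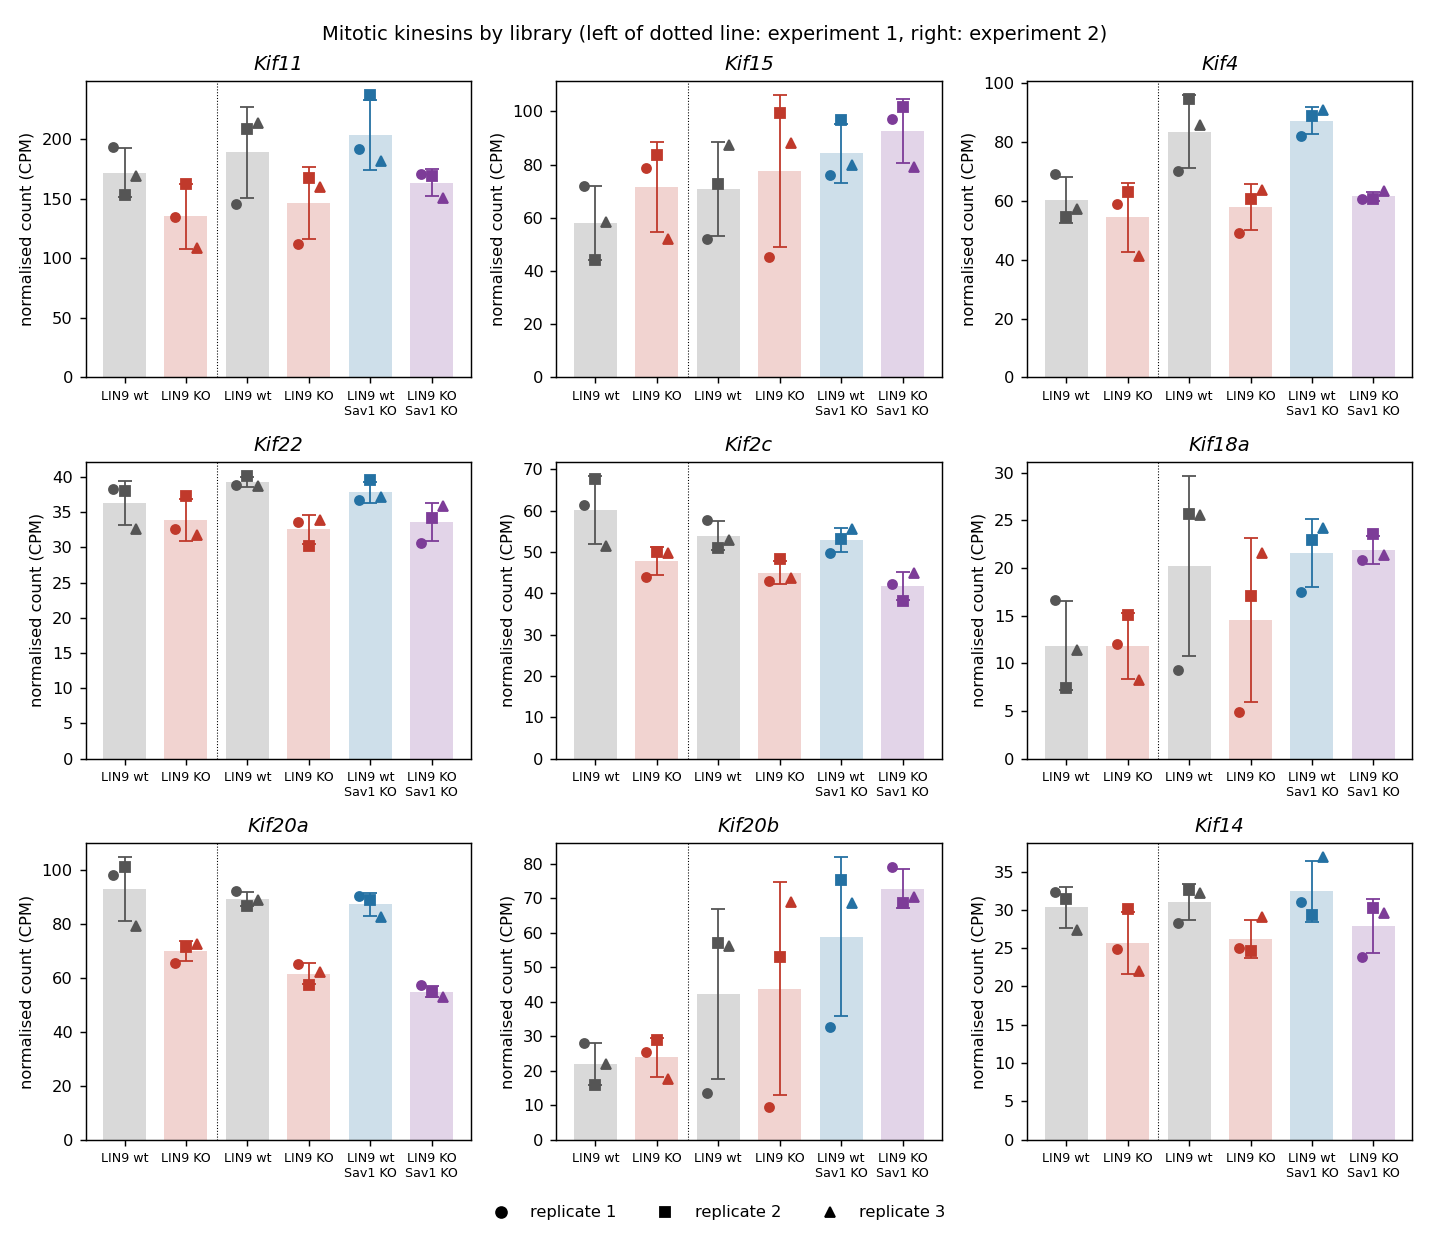
Normalised counts (CPM) of the 9 counted mitotic kinesins in each library, with 3 libraries per group; bars are means, whiskers are SD and the marker shape is the replicate number. Kif20a lies lower in every LIN9 KO library than in any LIN9 wt library of the same experiment, and Kif20b and Kif18a have single low libraries in the LIN9 wt and LIN9 KO groups of experiment 2.

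Experiment 1 asked what loss of LIN9 does to ventricles with intact Sav1. Kif20a, the cytokinesis motor, was the member that fell, with a change of -24.7% in its level. Kif20a (ENSMUSG00000003779, chr18:34624613-34633277) was 98.1, 101 and 79.3 CPM in LIN9 wt and 65.7, 71.3 and 72.7 CPM in LIN9 KO libraries. Each LIN9 KO library lay below each LIN9 wt library, and Kif20a fell with a log2 fold change of -0.41 (SE 0.11, edgeR adjusted p 0.0153). Among the motors of microtubule ends, Kif2c, which takes microtubules apart at centromeres (ENSMUSG00000028678, chr4:117159639-117182639), was 61.3, 67.7 and 51.4 CPM in LIN9 wt and 44.02, 49.9 and 49.7 CPM in LIN9 KO libraries. These groups did not overlap either, and the difference of -0.33 did not pass the test (SE 0.12, adjusted p 0.0558). Such groups apart were found in these 2 of the 9 members, beside 36.5% of all genes tested. In bulk tissue, fewer cells of a type and less RNA per cell cannot be told apart.

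The other members of experiment 1 had groups that overlapped. Of the spindle assembly motors, Kif11 (ENSMUSG00000012443, chr19:37376403-37421859) was 194, 153 and 169 CPM in LIN9 wt and 135, 162 and 108 CPM in LIN9 KO libraries, a log2 fold change of -0.35 (adjusted p 0.0982). Its lowest library was the third of LIN9 KO, and the second LIN9 KO library lay above the second LIN9 wt library. Kif15, which can keep a spindle bipolar beside Kif11, had 0.30 (adjusted p 0.414). Kif4, which shapes chromosome arms with condensin and works with PRC1 at the midzone, had -0.15 (adjusted p 0.564), and Kif22, which pushes chromosome arms towards the spindle equator, had -0.10 (adjusted p 0.61). Kif18a, Kif20b and Kif14 had log2 fold changes of -0.01, 0.12 and -0.24.

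In this comparison 1 of the 9 members tested was called, at an adjusted p under 0.05, beside 20.9% of all 19752 genes tested in either direction and 9.78% lower in LIN9 KO. That share is near the background. The median log2 fold change of the members was -0.15, against 0.02 for all genes, and 7 of 9 were below 0. With 1 library left out this median ranged from -0.27 (without LIN9 KO replicate 2, 8 below 0) to -0.05 (without LIN9 KO replicate 3, 5 below 0). The call of Kif20a was lost without LIN9 wt replicate 1 (adjusted p 0.0842), without LIN9 wt replicate 2 (0.0813) and without LIN9 KO replicate 1 (0.0746), and kept in the other 10 of 13 alternatives, with log2 fold changes of -0.51 to -0.34 over all of them. With the replicate number as a block, Kif2c was called as well (log2 fold change -0.32, adjusted p 0.0255). Over 13 alternatives its adjusted p ranged from 0.0201 to 0.233, and it was past the threshold in 6 of them: also with no filter on low counts (0.0293), without LIN9 wt replicate 3 (0.0287), without LIN9 KO replicate 3 (0.0366), with GC correction (0.0407) and with GC correction and block (0.0201). Kif11 was past it without LIN9 KO replicate 2 (-0.50, adjusted p 0.0127) and in 3 other alternatives of 13 (range 0.0127 to 0.339).

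Markers of several cell types moved with LIN9 in the same libraries. Among all genes tested, 9.78%, 10.5% and 11.6% fell in the 3 LIN9 comparisons, and 2199 of 19752, 2254 of 17675 and 2077 of 17675 rose. Of the 11 cardiomyocyte markers tested, 8 fell in each of the 3 LIN9 comparisons and none rose. Their summed level was 23350.3, 23901 and 23756 CPM in LIN9 wt and 11223, 14613 and 10561 CPM in LIN9 KO libraries of experiment 1. In experiment 2 it was 25870.2, 26897 and 27023 CPM in LIN9 wt, 14379.8, 12969 and 12883 in LIN9 KO, 28296, 27803 and 29035 in Sav1 KO and 12833, 14911 and 15924 in double knockout libraries. The summed level of every LIN9 KO library was thus below that of every library with LIN9. Of the 12 erythroid markers tested, 11, 12 and 11 rose in the LIN9 comparisons of experiment 1, of Sav1 wt and of Sav1 KO ventricles, with the embryonic globin Hbb-y as the most abundant. Their sum was 10964, 7919.6 and 9201 CPM in LIN9 wt and 90790.5, 46862 and 34896 CPM in LIN9 KO libraries of experiment 1. In experiment 2 it was 5352, 4263 and 4393 CPM in LIN9 wt, 21225, 30643 and 39045 in LIN9 KO, 3643, 3339 and 4381 in Sav1 KO and 30858, 19458 and 10702 in double knockout libraries, with no overlap between libraries with and without LIN9.

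Of 8 macrophage markers, of which Csf1r was the most abundant, 8, 6 and 8 rose, of 8 fibroblast markers (Col3a1) 7, 7 and 8, and of 6 epicardial markers (Upk3b) 5, 5 and 5. These counts, and those of endothelial and smooth muscle markers below, stand beside the shares of all genes given above. The macrophage sum was 69.8, 73.6 and 77.4 CPM in LIN9 wt and 140.2, 169 and 144 CPM in LIN9 KO libraries of experiment 1. In experiment 2 it was 86.1, 83.9 and 84.4 CPM in LIN9 wt, 187, 152 and 158 in LIN9 KO, 66.3, 71.2 and 80.9 in Sav1 KO and 163, 203 and 213 in double knockout libraries, higher in each library without LIN9. The fibroblast sum was 2615, 2375 and 2300.2 CPM in LIN9 wt and 4738, 5147 and 5059 CPM in LIN9 KO libraries of experiment 1, and in experiment 2 3084, 3220.5 and 2989 CPM in LIN9 wt, 6671, 6749.9 and 5368 in LIN9 KO, 3107, 3497 and 2943 in Sav1 KO and 5388, 6024 and 6892 in double knockout libraries. The epicardial sum was 284, 262 and 265 and 480.2, 446 and 526 CPM in experiment 1, and 233, 242 and 249.7 CPM in LIN9 wt, 428, 415 and 514 in LIN9 KO, 205, 232 and 256 in Sav1 KO and 404, 422 and 420.1 in double knockout libraries of experiment 2. Both were higher in each library without LIN9. Of 9 endothelial markers (Pecam1 the most abundant), 3, 3 and 5 rose and 0, 1 and 1 fell. Of 4 smooth muscle markers (Acta2 the most abundant), 1 rose in each comparison and 0, 1 and 1 fell. The endothelial sum was 1273, 1412 and 1099.5 CPM in LIN9 wt and 1284, 1672 and 1292 CPM in LIN9 KO libraries of experiment 1, and in experiment 2 1218, 1254 and 1235 CPM in LIN9 wt, 1464, 1364 and 1293 in LIN9 KO, 1140.5, 1055 and 1123 in Sav1 KO and 1183, 1368 and 1399 in double knockout libraries. The smooth muscle sum was 1501, 1684 and 1422 and 1984, 2050.2 and 2248 CPM in experiment 1, and 1476, 1423 and 1409 CPM in LIN9 wt, 1723, 1504 and 1406 in LIN9 KO, 1642, 1708 and 1689 in Sav1 KO and 1642, 1506 and 1724 in double knockout libraries of experiment 2. No marker of these 5 lists was at 0 in all libraries. Some of these cell types also divide, and the part of the mix of cells in the values of the mitotic kinesins was not tested.

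In experiment 2, with wild-type Sav1, a motor of the chromosome arms fell beside the cytokinesis motor: Kif20a and Kif4 changed by -31.0% and -30.8% in LIN9 KO ventricles. Kif20a was 92.1, 86.7 and 88.9 CPM in LIN9 wt and 65.1, 57.4 and 62.3 CPM in LIN9 KO libraries. Each LIN9 KO library was below each LIN9 wt library, and Kif20a fell with a log2 fold change of -0.53 (SE 0.10, edgeR adjusted p 0.000343). Kif4 (ENSMUSG00000034311, chrX:100625737-100727214) was 70.1, 94.6 and 85.8 CPM in LIN9 wt and 49.0, 60.7 and 63.8 CPM in LIN9 KO libraries. The groups did not overlap, the library numbered 1 was the lowest of both, and Kif4 fell with -0.53 (SE 0.12, adjusted p 0.00173).

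Of the members that were not called, Kif22 and Kif2c also had all LIN9 KO libraries below all LIN9 wt libraries, so that groups did not overlap in 4 of 9 members, beside 35.1% of all genes tested. Kif22 was 38.9, 40.1 and 38.7 CPM in LIN9 wt and 33.5, 30.2 and 33.9 CPM in LIN9 KO libraries (-0.27, adjusted p 0.142). Kif2c was 57.8, 51.0 and 52.9 CPM and 43.1, 48.2 and 43.6 CPM (-0.26, adjusted p 0.123). Kif11 was 145, 208 and 214 CPM in LIN9 wt and 112, 168 and 159.6 CPM in LIN9 KO libraries. The library numbered 1 was the lowest of each group, and the LIN9 wt library numbered 1 lay below LIN9 KO libraries 2 and 3, so the groups overlapped. The log2 fold change of Kif11 was -0.37 (SE 0.17, adjusted p 0.149). Kif15 had 0.13 and Kif14 had -0.24, with adjusted p-values of 0.813 and 0.274.

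In Kif20b and Kif18a single libraries stood apart. Kif20b, a motor of the last step of cytokinesis, was 13.6, 56.9 and 56.0 CPM in LIN9 wt and 9.53, 52.8 and 69.0 CPM in LIN9 KO libraries, so that the library numbered 1 of each group lay far below the rest. Kif18a was 9.31, 25.7 and 25.6 CPM in LIN9 wt and 4.93, 17.1 and 21.6 CPM in LIN9 KO libraries, with the same 2 libraries lowest. Log2 fold changes were 0.04 for Kif20b (SE 0.69, 95% interval -1.54 to 1.63) and -0.49 for Kif18a (SE 0.49, 95% interval -1.61 to 0.63). In this fit a difference of the size seen in Kif20a was thus not detectable in either. An alternative chosen after seeing the data left out the 4 libraries numbered 1 of experiment 2. There the log2 fold changes were 0.10 (SE 0.13) for Kif20b and -0.42 (SE 0.19) for Kif18a, and neither was called.

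In this comparison 2 of the 9 members tested were called, both lower, beside 23.2% of all 17675 genes tested in either direction and 10.5% lower. The median log2 fold change of the members was -0.27, against 0.01 for all genes, and 7 of 9 were below 0. With 1 library left out this median ranged from -0.46 (without LIN9 KO replicate 3, 8 below 0) to -0.23 (without LIN9 KO replicate 1, 7 below 0). The calls of Kif20a and Kif4 were kept in 15 of 15 alternatives, each library left out in turn included. Deviations from the group mean correlated between libraries of the same number across all genes (r 0.136 to 0.509). Libraries of different numbers were not compared, so this does not show that samples were paired. The libraries numbered 1 of both groups also deviated by GC content, as given below. With the replicate number as a block, Kif11 was called as well (log2 fold change -0.37, adjusted p 0.0334), and it was past the threshold without LIN9 wt replicate 1 (-0.54, adjusted p 0.0155). Over 15 alternatives the adjusted p of Kif11 ranged from 0.00375 to 0.358.

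The libraries also differed over all genes by the GC content of the transcripts. In each library, the median deviation from the mean of the experiment was taken for the genes lowest in GC (at most 41.1% in experiment 1 and 41.2% in experiment 2) and for those highest (at least 57.6%), and the latter was subtracted from the former. In experiment 2 this difference was -0.29 (log2) in LIN9 wt replicate 1 and -0.57 in LIN9 KO replicate 1, the libraries in which Kif20b and Kif18a were lowest, and between -0.07 and 0.28 in the other 10. In experiment 1 it was -0.15 in LIN9 wt replicate 2 and -0.18 in LIN9 KO replicate 3, and 0.06 to 0.12 in the other 4. In order of GC content, the longest transcripts of the counted members were at 38.2% (Kif18a), 39.4% (Kif20b), 42.2% (Kif11), 42.7% (Kif15), 46.4% (Kif14), 48.1% (Kif4), 48.4% (Kif20a), 49.0% (Kif22) and 50.3% (Kif2c). In this order they deviated from their means over experiment 2 by -0.91, -1.72, -0.25, -0.59, -0.04, -0.02, 0.36, 0.12 and 0.27 in LIN9 wt replicate 1, and by -1.74, -2.21, -0.62, -0.79, -0.22, -0.53, -0.14, -0.09 and -0.15 in LIN9 KO replicate 1. Whether GC content set these deviations of the members was not tested.

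A correction for GC content in each library was added as an alternative after the values had been seen. With it, Kif11 was called in all 3 LIN9 comparisons, at -0.36, -0.33 and -0.39 with adjusted p-values of 0.0495, 0.0233 and 0.00706. Kif2c was called in experiment 1 (-0.33, adjusted p 0.0407) and in ventricles without Sav1 (-0.35, adjusted p 0.029), but not in those with it (-0.29, adjusted p 0.074). In the LIN9 comparison with wild-type Sav1 the SE of Kif18a was 0.31 with the correction and 0.49 without it. That of Kif20b was 0.57 and 0.69. These SE were 0.19 for Kif18a and 0.13 for Kif20b, uncorrected, when the 4 libraries numbered 1 were left out. Without the 4 libraries numbered 1 of experiment 2, Kif11 was called in both LIN9 comparisons of that experiment (-0.37 and -0.39, adjusted p 0.00419 and 0.00247). Kif15, Kif18a and Kif20b were called in no LIN9 comparison under these alternatives.

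**Figure D2:**
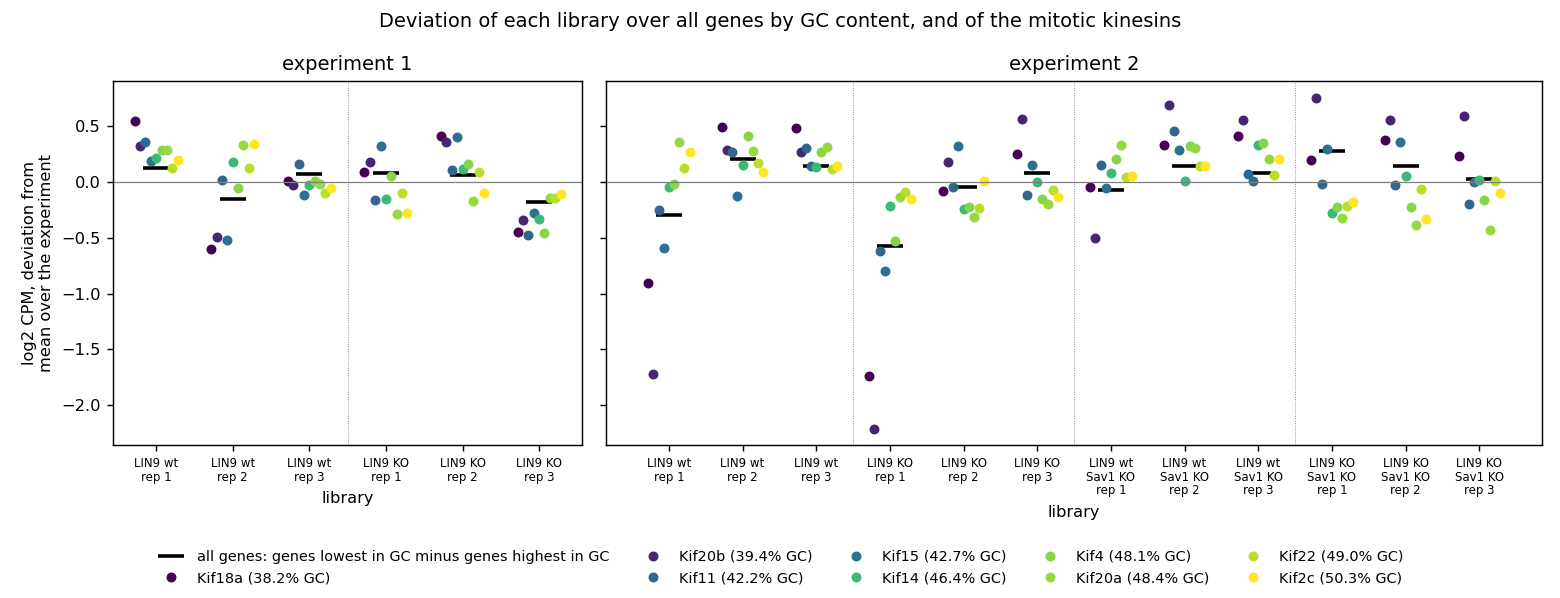
Deviation of each library from the mean of its experiment (log2 CPM): the black dash is the median of the genes lowest in GC minus that of the genes highest in GC, and points are the 9 counted mitotic kinesins, coloured by the GC content of their longest transcript. The dash is lowest, at -0.29 and -0.57, in the libraries numbered 1 of LIN9 wt and LIN9 KO in experiment 2, where the points of Kif20b are at -1.72 and -2.21.

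Loss of LIN9 in ventricles that also lacked Sav1 was measured by the double knockout against Sav1 KO. Here Kif20a, Kif4 and Kif2c fell, motors of cytokinesis, chromosome arms and microtubule ends. Kif20a was 90.5, 88.8 and 82.6 CPM in Sav1 KO and 57.3, 54.6 and 53.0 CPM in double knockout libraries. The groups were far apart, and Kif20a fell with -0.67 (SE 0.11, -37.0%, edgeR adjusted p 2.66e-05). Kif4 was 82.1, 88.8 and 90.8 CPM in Sav1 KO and 60.7, 60.6 and 63.3 CPM in double knockout libraries. Each double knockout library lay below each Sav1 KO library, and Kif4 fell with -0.50 (SE 0.12, -29.5%, adjusted p 0.00269). Kif2c was 49.8, 53.0 and 55.6 CPM in Sav1 KO and 42.3, 38.0 and 44.8 CPM in double knockout libraries. These too did not overlap, and Kif2c fell with -0.34 (SE 0.12, -21.0%, adjusted p 0.0419).

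Kif11 and Kif22 had groups apart and did not pass the test. Kif11 was 192, 237 and 182 CPM in Sav1 KO and 171, 169 and 150.5 CPM in double knockout libraries (-0.32, adjusted p 0.21), and Kif22 was 36.7, 39.5 and 37.2 CPM and 30.7, 34.2 and 35.9 CPM (-0.17, adjusted p 0.38). Every double knockout library of both was below every Sav1 KO library. Groups thus did not overlap in 5 of 9 members, beside 41.1% of all genes tested. Kif20b was 32.6, 75.3 and 68.6 CPM in Sav1 KO and 79.1, 68.7 and 70.4 CPM in double knockout libraries, with Sav1 KO replicate 1 the lowest, and had 0.31 (SE 0.64). Kif15, Kif18a and Kif14 had log2 fold changes of 0.14, 0.02 and -0.22.

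In this comparison 3 of the 9 members tested were called, all lower, beside 23.4% of all genes tested in either direction and 11.6% lower. The median log2 fold change of the members was -0.22, against 0.03 for all genes, and 6 of 9 were below 0. The calls of Kif20a and Kif4 were kept in 15 of 15 alternatives. That of Kif2c was lost without Sav1 KO replicate 1 (adjusted p 0.0605), replicate 2 (0.0958) or replicate 3 (0.144), without double knockout replicate 2 (0.137), with DESeq2 (0.121) and with no filter on low counts (0.0601), and kept in the other 9 of 15. Over all 15 its adjusted p ranged from 0.0249 to 0.144. Kif11 was past the threshold in 5 of 15 alternatives (range 0.0012 to 0.504).

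**Figure D3:**
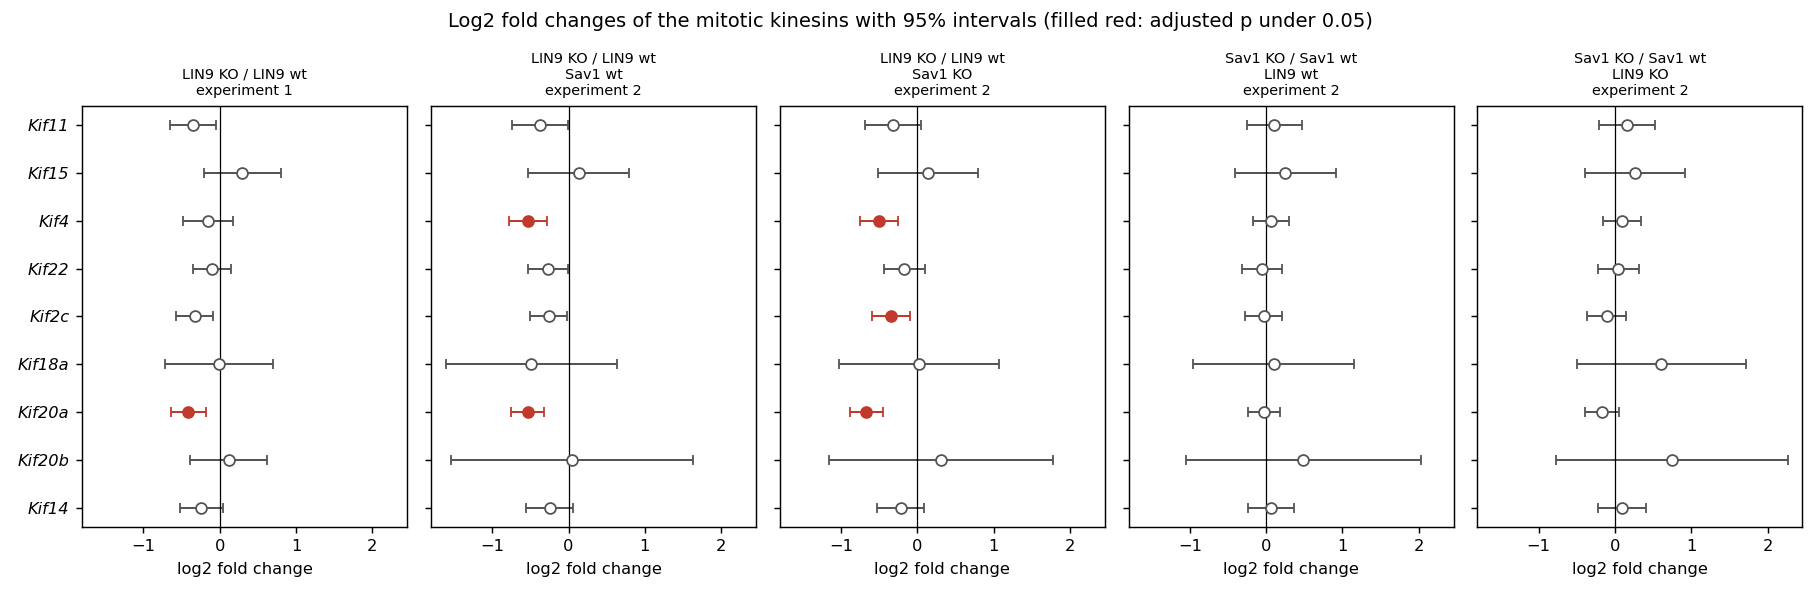
Log2 fold changes of the 9 counted mitotic kinesins with 95% intervals (3 libraries per group) in the LIN9 and Sav1 comparisons; filled red points have an adjusted p under 0.05. Kif20a is filled in all 3 LIN9 comparisons (-0.41, -0.53 and -0.67), Kif4 in the 2 of experiment 2 and Kif2c in the ventricles without Sav1, while no point is filled in the Sav1 comparisons.

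Experiment 2 was designed around the question whether gene expression after loss of Sav1 depends on LIN9. None of the mitotic kinesins passed the test for a change with Sav1. With LIN9 present, Kif20a was 89.2 ± 2.72 CPM (SD, n = 3) in LIN9 wt and 87.3 ± 4.19 CPM in Sav1 KO ventricles, Kif4 was 83.5 ± 12.4 and 87.2 ± 4.53 CPM, and Kif11 was 189 ± 38.1 and 204 ± 29.4 CPM. Groups that did not overlap were found in 0 of the 9 members here, beside 12.1% of all genes tested, with log2 fold changes from -0.05 in Kif22 to 0.48 in Kif20b. Called by edgeR were 0 of 9 members, beside 0.017% of all genes tested. At an unadjusted p under 0.05 were 0 of 9 members, beside 3.92% of all genes, and DESeq2 called 0 of 9, beside 2 of all 17675 genes. The 95% intervals were -0.24 to 0.18 for Kif20a, -0.18 to 0.31 for Kif4 and -0.27 to 0.21 for Kif2c. For Kif20b the interval was -1.05 to 2.02, and in this fit a change of over 1 on the log2 scale would not have been detectable. With the 4 libraries numbered 1 left out, Kif20b had 0.35 (SE 0.13, against 0.67 in the main fit) and was not called. The median of the members was 0.06, against 0.00 for all genes. With 1 library left out it ranged from -0.005 (without LIN9 wt replicate 1) to 0.148 (without LIN9 wt replicate 2).

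Without LIN9, the Sav1 comparison was the double knockout against LIN9 KO. Kif20a was 65.1, 57.4 and 62.3 CPM in LIN9 KO and 57.3, 54.6 and 53.0 CPM in double knockout libraries. Its groups, unlike those of the other members, did not overlap (1 of 9 members, beside 15.1% of all genes tested), with all double knockout libraries lower, and its log2 fold change of -0.16 did not pass the test (SE 0.11, adjusted p 0.579). The other 8 members had log2 fold changes from -0.11 in Kif2c to 0.75 in Kif20b. Called by edgeR were again 0 of 9 members, beside 0.0113% of all genes tested. At an unadjusted p under 0.05 there were again 0 of 9, beside 11.8% of all genes, and DESeq2 called 0 of 9, beside 77 of all 17675 genes. The 2 genes called by edgeR among all genes became 309 with no filter on low counts and 378 without LIN9 KO replicate 3, while the members called stayed at 0. The median of the members was 0.09, against 0.00 for all genes. With 1 library left out it ranged from 0.005 (without LIN9 KO replicate 1) to 0.16 (without LIN9 KO replicate 3).

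The interaction, the Sav1 effect without LIN9 minus that with LIN9, tests whether the LIN9 effects in both Sav1 backgrounds differ. These comparisons rest on the same 12 libraries. For Kif20a the interaction was -0.13 on the log2 scale (95% interval -0.44 to 0.17, adjusted p 0.917), for Kif4 0.03 (-0.32 to 0.38, 0.987) and for Kif2c -0.08 (-0.43 to 0.27, 0.961). So Kif2c, called in 1 of the backgrounds, was not shown to differ between them. It was widest in Kif20b, 0.26 with an interval of -1.90 to 2.42. Called by edgeR were 0 of 9 members (0 at an unadjusted p under 0.05, 0 by DESeq2), beside 0% of all genes tested (6.54%, 1156 of 17675, at an unadjusted p under 0.05, 0 by DESeq2). The LIN9 effects of experiments 1 and 2 come from separate fits, and their difference, such as that of Kif4 (-0.15 against -0.53), was not tested.

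The members belong to different kinesin families, and Kif20a has a close relative outside the list. Kif23, which bundles microtubules at the midzone with Racgap1, is of the same family as Kif20a and Kif20b. Kif23 was 122, 100.03 and 95.7 CPM in LIN9 wt and 72.4, 80.8 and 55.4 CPM in LIN9 KO libraries of experiment 1. In experiment 2 it was 109, 128 and 126 CPM in LIN9 wt, 62.1, 75.4 and 75.7 in LIN9 KO, 119, 143 and 139.9 in Sav1 KO and 67.8, 73.6 and 74.0 in double knockout libraries. No library with LIN9 overlapped one without it in either experiment. It fell in the 3 LIN9 comparisons, with log2 fold changes of -0.61, -0.77 and -0.90 (adjusted p 0.00622, 7.7e-06 and 6.96e-07), while Kif20b had 0.12, 0.04 and 0.31. Of the 4 other mitotic kinesins tested (of 5 listed), Kif23 was called each time and the others were not. Of 25 kinesins of transport and other tasks tested (of 26), 6, 5 and 6 rose and 3, 2 and 3 fell: Kif1a, a motor of synaptic vesicle precursors, rose by 1.62, 2.46 and 2.33, and Kif13a had -0.67, -0.56 and -0.46. The medians of this list were 0.13, 0.27 and 0.34. Among all genes tested, 2199 of 19752, 2254 of 17675 and 2077 of 17675 rose, and 9.78%, 10.5% and 11.6% fell.

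Of 20 partners of the kinesins at the spindle and midzone tested (of 21), 7, 7 and 11 fell and 2, 2 and 2 rose, with medians of -0.21, -0.23 and -0.41. For this and the next lists, 9.78%, 10.5% and 11.6% of all genes tested fell, and 2199 of 19752, 2254 of 17675 and 2077 of 17675 rose. Whether the lists differ from these shares was not tested. Cdca8, which sits with Aurora B in the complex that Kif20a carries, had -0.50, -0.66 and -0.79 (adjusted p 0.00326, 4.58e-05 and 3.57e-06). Racgap1, the partner of Kif23, had -0.58, -0.59 and -0.88, and Ccnb1, the mitotic cyclin, -0.92, -0.95 and -1.09, past the threshold each time. Psrc1, a protein of spindle microtubules, rose, by 0.96, 1.05 and 1.04. Of 7 MuvB subunits and partners, 1, 1 and 2 fell and none rose: Foxm1 in experiment 1, the targeted gene Lin9 itself with wild-type Sav1, and Foxm1 and Rbbp4 without Sav1. DESeq2 called 0, 1 and 2 of them. Foxm1 had -0.30, -0.13 and -0.53 (adjusted p 0.041, 0.477 and 0.00147). Its call in experiment 1 was lost with DESeq2 (adjusted p 0.0701) and without any 1 of the 6 libraries (0.0631, 0.135 and 0.123 without LIN9 wt replicates 1 to 3, 0.107, 0.0569 and 0.0616 without LIN9 KO replicates 1 to 3). Mybl2 had 0.27, 0.18 and 0.04 and was not called. Of the 6 MCM genes, whose products form the replication helicase, 0, 2 and 6 fell, with medians of -0.05, -0.21 and -0.48; by edgeR 1 of them had an unadjusted p under 0.05 in experiment 1, beside 32.1% of all genes tested, and DESeq2 called 0.

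In both Sav1 comparisons and the interaction, edgeR called 0 genes of every list named here. In the order with LIN9, without it and interaction, medians were 0.155, -0.147 and -0.26 for the MCM genes (0, 5 and 6 of 6 below 0). For the spindle and midzone partners they were 0.115, -0.06 and -0.14, and for the MuvB genes 0.13, 0.17 and -0.09. Other mitotic kinesins had 0.12, 0.10 and 0.03, and other kinesins -0.03, 0.04 and 0.04. These medians were not tested. Unadjusted p-values under 0.05 were found for 3.92%, 11.8% and 6.54% of all genes tested in the Sav1 comparison with LIN9, that without it, and the interaction. In the same order they were found for 1, 3 and 3 of the 20 spindle and midzone partners, for 0, 2 and 2 of the 7 MuvB genes, for 0, 0 and 2 of the 6 MCM genes, for 0, 0 and 0 of the 4 other mitotic kinesins and for 0, 2 and 1 of the 25 other kinesins. Of the cell type markers they were found for 0, 0 and 0 of 11 cardiomyocyte, 1, 4 and 0 of 12 erythroid, 1, 1 and 2 of 8 macrophage, 1, 0 and 1 of 8 fibroblast, 0, 2 and 0 of 6 epicardial, 1, 0 and 1 of 9 endothelial and 1, 1 and 0 of 4 smooth muscle markers. DESeq2 called 1 erythroid marker in the Sav1 comparison without LIN9 and 0 of the others. Whether the counts of these lists differ from the shares of all genes was not tested.

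**Figure D4:**
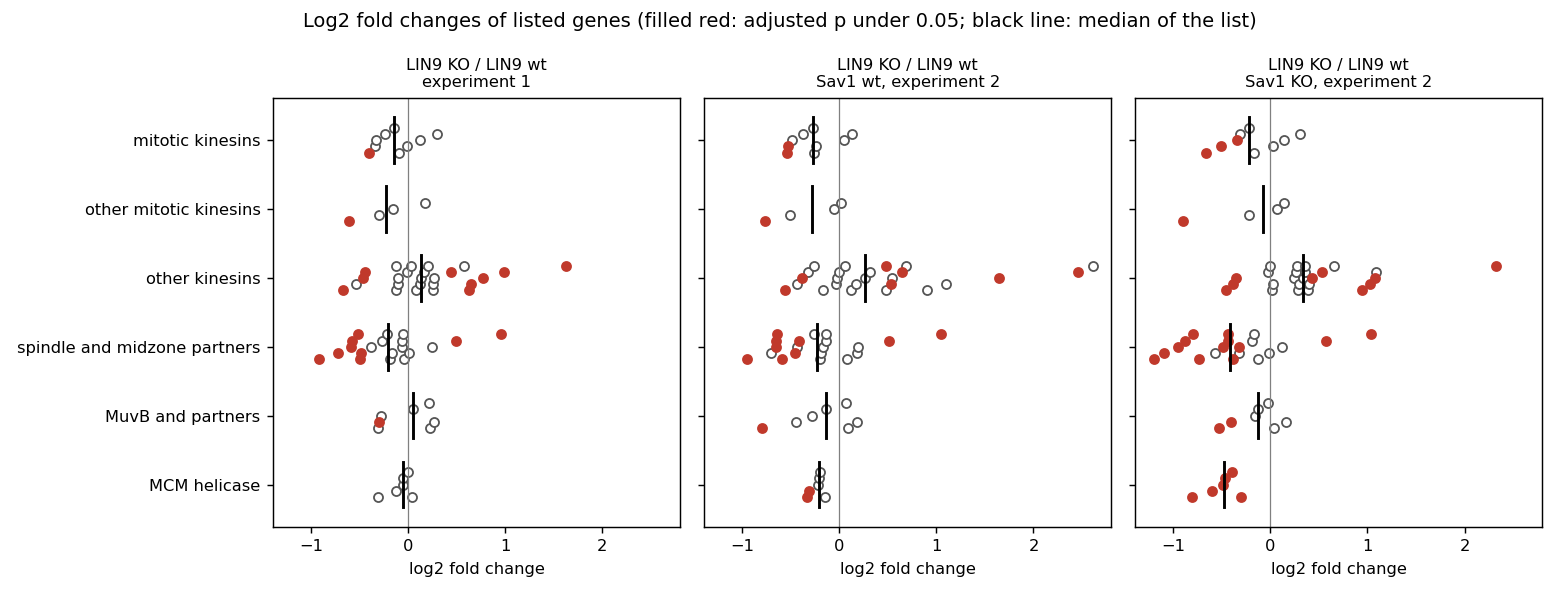
Log2 fold changes of the genes of 6 lists in the 3 LIN9 comparisons; filled red points have an adjusted p under 0.05 and black lines are the medians. The mitotic kinesins have medians of -0.15, -0.27 and -0.22, and the spindle and midzone partners -0.21, -0.23 and -0.41.

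The members varied among themselves also within a group. The 10 members together took 609, 513 and 509 CPM in LIN9 wt and 477, 541 and 404 CPM in LIN9 KO libraries of experiment 1. In experiment 2 the sum was 508, 668 and 681 CPM in LIN9 wt, 387, 558 and 571 in LIN9 KO, 608, 731 and 657 in Sav1 KO and 583, 581 and 548 in double knockout libraries. As groups, LIN9 wt and LIN9 KO overlapped in both experiments, and every double knockout library was below every Sav1 KO library. In experiment 2 each LIN9 KO sum was below the LIN9 wt sum of the same replicate number, but it is not shown that these numbers pair samples. These sums were not tested. The lowest sums of experiment 2 were those of the libraries numbered 1 of LIN9 wt and LIN9 KO within their groups, and Kif11 had the highest CPM of the members in every library.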

How the data were processed

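RNA was measured in 18 libraries of ventricular tissue, 3 per group. Per the paper, the authors mapped reads to mm10 with TopHat and Bowtie2, brought libraries of an experiment to the same number of mapped reads, and counted reads per Ensembl gene with summarizeOverlaps, whose settings are not given. The deposited tables hold these counts, unnormalised. The authors' tables of log2 fold changes and p-values of their own comparisons, and the 4 ChIP-seq samples, were not used. The 4 identifiers that occurred more than once had identical counts and were kept once.

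Each experiment was fitted alone with edgeR 4.0.16 (R 4.3.3), after genes whose counts averaged 1 or less had been dropped (19752 and 17675 genes tested): TMM normalisation, the robust quasi-likelihood test on group means, and Benjamini-Hochberg adjustment over all genes with a threshold of 0.05. The SE were derived as the absolute log2 fold change divided by the square root of the F statistic of the quasi-likelihood test. The 95% intervals were built from these SE with the t distribution. CPM are on TMM library sizes. Levels per kb use the union of exons, and GC content the longest transcript, in the mm10 annotation. Motifs were searched on both strands of RefSeq promoters.

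The members and lists were chosen with earlier results of these data known. Named genes are the 10 members, Lin9, Sav1, Mybl2 and Foxm1, and genes from up to 3 per list and comparison with the lowest adjusted p past the threshold, with the most abundant gene of each marker list; Cdca8, Racgap1 and Ccnb1 are of these. Whether replicate numbers pair libraries was checked by correlating deviations from group means between same-numbered libraries, with 0.1 as the least r for every pair. LIN9 wt with LIN9 KO libraries of experiment 2 met this limit. It was not met in experiment 1 (0.0464 to 0.225), by LIN9 wt with Sav1 KO (0.0663 to 0.222) or by any group with the double knockout. Libraries of different numbers were not compared, so meeting the limit does not show that samples were paired. Libraries of a group differed by more than repeated counting of 1 library would, which gives a chi-square per degree of freedom near 1. This excess was small in some pairs: the value was 1.22 for LIN9 wt replicates 2 and 3 of experiment 2, and 1.39 to 1.98 among Sav1 KO libraries. It was 26.2 for LIN9 KO replicates 1 and 3 of experiment 1, the highest. Alternatives were DESeq2 1.42.0, no filter and a stricter filter on low counts, another scaling, the replicate number as a block, only the compared libraries, each library left out, and, chosen after seeing the data, a GC correction with and without the block and leaving out the 4 libraries numbered 1 of experiment 2.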

Additional observations from a re-analysis of the deposited data

Results flagged for a closer look

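No mitotic kinesin had Sav1 effects in opposite directions with and without LIN9 in every library. Of the other genes named, the macrophage marker C1qa did: it was 11.3, 10.96 and 10.4 CPM in LIN9 wt and 8.75, 9.45 and 9.89 CPM in Sav1 KO libraries, all lower, and 20.0, 17.7 and 16.8 CPM in LIN9 KO and 20.1, 20.1 and 27.4 CPM in double knockout libraries, all higher. The log2 fold changes were -0.22 and 0.30, and their difference of 0.52 (0.521) did not pass the interaction test (95% interval -0.05 to 1.09, edgeR adjusted p 0.783).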

How the results depend on the processing

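No member that was called changed its direction under any alternative. Of the values of single members under the alternatives named in the methods, GC correction and the libraries numbered 1 aside, 90 of 99 in experiment 1, 105 of 108 in the LIN9 comparison with Sav1 and 100 of 108 in that without Sav1 kept their direction and side of the threshold or stayed uncalled, as did all 108, 108 and 153 in the Sav1 comparisons and the interaction; 7, 5, 2, 7, 3 and 18 uncalled values changed sign. Beside the calls of Kif2c and Kif11 given with the results, the replicate block changed no other call of a member. Members called in experiment 1 (1) were 3 with no filter, 2 with the replicate block, 3 with GC correction, 3 with GC correction and block, and 0 to 2 with 1 library left out. In experiment 2 they were 2 to 3 under all alternatives with Sav1 and 2 to 4 without it, and 0 in the Sav1 comparisons and the interaction under all of them.

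Over all genes, calls in experiment 1 (4131) were 2722 to 4223 with 1 library left out (2722 without LIN9 wt replicate 3). Sav1 calls with LIN9 (3) were 22 with no filter, 31 on the 6 libraries compared, 13 without the 4 libraries numbered 1, 6 with GC correction, 25 with GC correction and block, and 0 to 2 with 1 library left out. Sav1 calls without LIN9 (2) were 77 with DESeq2, 309 with no filter, 0 with filterByExpr, 84 with the replicate block, 0 on the 6 libraries compared, 134 without the libraries numbered 1, 16 with GC correction, 203 with GC correction and block, and 0 to 378 with 1 library left out (378 without LIN9 KO replicate 3). The interaction (0) had 17 with no filter, 19 without the libraries numbered 1 and 0 to 64 with 1 library left out (64 without LIN9 KO replicate 3). The causes were not tested. GC correction and leaving out the libraries numbered 1 were chosen after seeing the data. With 3 libraries a group, the main fit of experiment 2 gave wide 95% intervals for Kif18a and Kif20b, so changes in them could be missed. In the LIN9 comparison with wild-type Sav1 their SE were 0.49 and 0.69, and 0.19 and 0.13 without the libraries numbered 1. PolyA counts of whole genes do not show splice forms.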
